A study of Mus musculus with 6 samples.

Results

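The TGF-beta receptors, their ligand and the Smad proteins were followed here as 10 genes, Tgfb1, Lrrc33, Tgfbr1, Tgfbr2, Smad2, Smad3, Smad4, Smad7, Ski and Skil, in 2 lists of genotype-specific open chromatin from mouse microglia. A peak was counted for a gene when its midpoint lay inside the gene, or when an end of that gene was the nearest end of any protein-coding gene within 100 kb (mm10, RefSeq). This gave 26 of 12105 listed peaks, of which 21 came from the cKO list and 5 from the cWT list. Lrrc33 is annotated as Nrros in the gene table. Its peaks were found under that symbol.

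The lists come from ATAC-seq, in which the Tn5 transposase cuts open chromatin, on sorted microglia of C57BL/6J mice labelled as 8 weeks old. The labels name 6 libraries, 3 per genotype, with about 50000 cells each. In cKO mice both Mir137 alleles were floxed (Mir137loxP/loxP) and Tmem119-CreERT2 was present. In cWT mice Mir137 was intact (Mir137+/+) and the same Tmem119-CreERT2 was present. Both groups therefore carry the recombinase, which is tamoxifen-inducible and driven from the microglial gene Tmem119. Both received tamoxifen for 7 days, started at 7 to 8 weeks of age. Primary microglia are stated to come from n = 4 mice, without a link from library to animal. The study's question was which transcription factors gain activity once miR-137 is lost. The files hold 1 list per genotype and no value per library, so sequencing depth is unknown, no spread between replicates could be computed, and counts below are of peaks and not of animals.

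TGF-beta is secreted as a latent complex that LRRC33 tethers to the surface of microglia and other myeloid cells, and integrins release the active ligand. The ligand joins the type II receptor TGFBR2 to the type I receptor TGFBR1, which phosphorylates SMAD2 and SMAD3. These bind SMAD4, enter the nucleus and act on target genes, while SMAD7 blocks the receptors and SKI and SKIL repress the Smad complexes. In microglia this pathway is known for maintaining the mature homeostatic state, of which Tmem119 and P2ry12 are markers.

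The sequences that frame the comparison are the microRNA removed in cKO and the promoters of the 2 genes, among those with a promoter in the RefSeq table, with a listed peak within about 3 kb of the annotated start. The miR-137-3p strand is shown with its seed, bases 2 to 8, in capitals, written 5' to 3' from RefSeq (GRCm38.p6, chr3:118433901-118433923, plus strand). The promoters are the 250 bases before the annotated start, written 5' to 3' on the gene's strand from RefSeq (GRCm38.p6), at chr16:32165595-32165844 for Lrrc33 and chr9:116175364-116175613 for Tgfbr2, both on the minus strand. These promoters were chosen after the peaks' positions were seen. Capitals in the promoters mark a match to 1 of 6 motifs described with the promoter results.
miR-137-3p: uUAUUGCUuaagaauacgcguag
Lrrc33 promoter: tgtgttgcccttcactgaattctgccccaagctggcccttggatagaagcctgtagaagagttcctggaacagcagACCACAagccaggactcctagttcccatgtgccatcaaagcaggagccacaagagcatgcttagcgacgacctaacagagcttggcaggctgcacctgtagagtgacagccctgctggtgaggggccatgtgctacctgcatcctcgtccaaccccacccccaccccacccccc
Tgfbr2 promoter: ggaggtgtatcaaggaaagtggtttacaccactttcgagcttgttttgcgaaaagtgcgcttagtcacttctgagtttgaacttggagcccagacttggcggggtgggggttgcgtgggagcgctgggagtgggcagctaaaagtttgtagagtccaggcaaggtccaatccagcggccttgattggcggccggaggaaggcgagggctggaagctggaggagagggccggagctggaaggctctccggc

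Peaks specific to cKO were found at 9 of the 10 genes and peaks specific to cWT at 4. Smad3 held 6 cKO-specific and 2 cWT-specific peaks, Ski and Tgfbr2 held 3 cKO-specific peaks each, Lrrc33 held 2 cKO-specific and 1 cWT-specific peak, and Smad4 held 1 cWT-specific peak and 0 cKO-specific peaks. Tgfbr1 and Smad2 held 2 cKO-specific peaks each, Tgfb1 and Smad7 1 each, and Skil 1 of each list. Among all 21887 coding genes, 22.5% had a cKO-specific peak, 11.4% a cWT-specific peak and 5.95% a peak of both lists, which was the case for 3 of the 10 genes, Lrrc33, Smad3 and Skil. The territory of a gene, meaning the positions nearest to its ends and within 100 kb, was longer here than usual, with a median of 96.1 kb against 46.4 kb for all coding genes. Over these territories the 10 genes held 2.29 listed peaks per 100 kb against 0.649 for all coding genes, many of which need not be open in microglia. The peaks of either genotype that are in neither list were not used, so these shares do not separate genotype-specific opening from general opening of microglial genes. In bulk libraries a change in the mix of cells and a change within a cell cannot be told apart.

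**Figure D1:**
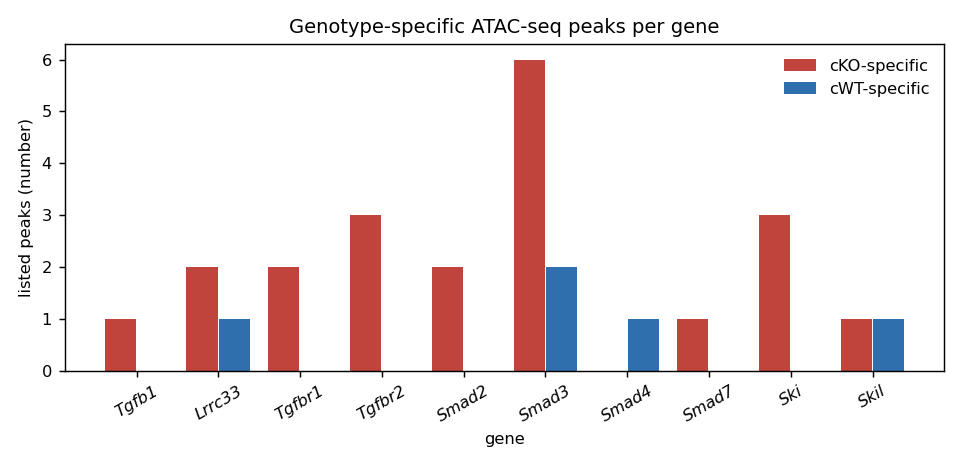
Number of genotype-specific peaks (y axis) at each of the 10 genes (x axis), with cKO-specific peaks in red and cWT-specific peaks in blue. Smad3 has the highest bars, 6 and 2, and Smad4 is the gene with a cWT-specific peak and 0 cKO-specific peaks.

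The interval of the cKO share at these genes included the genome-wide share. The cKO list gave 80.8% of the 26 peaks (exact 95% interval 60.6 to 93.4%) and 71.7% of all 11013 assigned peaks (70.9 to 72.6%). Without Smad3, which holds 8 of the 26, it gave 83.3% of 18 peaks (58.6 to 96.4%). The intervals cover counting error over peaks alone. A two-sided exact binomial test of the cKO share was run on every coding gene with at least 5 assigned peaks, which among the 10 genes applied to Smad3. Its 6 of 8 peaks (75.0%, 34.9 to 96.8%) were not told apart from the genome-wide share (exact binomial test, p = 1.0, Benjamini-Hochberg adjusted p = 1.0 over 270 genes). Of those 270 genes 0% passed the adjusted test and 6 had an unadjusted p under 0.05. Even 8 cKO-specific peaks of 8 would have given p = 0.116 in the exact test, so this test could not have called Smad3 for an excess of cKO-specific peaks.

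The ligand and its tether came first in the order of the pathway. Tgfb1, which encodes the TGF-beta 1 ligand (chromosome 7, 25687002 to 25705077), had 1 cKO-specific peak at 25706430 to 25707504, beyond the far end of the gene and 1890 bp from it. The next coding gene, Ccdc97, had its nearest end 4145 bp away. At 1075 bp this was the 25th widest of the 8615 cKO peaks, and its signal as deposited by the authors, 27.8, ranked 754th. Its p-value, 0.961, ranked it 8087th. The peak was therefore wide and high in signal while standing near the bottom of the list by p-value. It was 399812 bp from the nearest cWT-specific peak.

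Lrrc33, the gene of the protein that holds latent TGF-beta on myeloid cells (chromosome 16, 32142785 to 32165594, minus strand), had peaks of both lists. The cWT-specific peak at 32164417 to 32165056 lay inside the gene with its midpoint 857 bp downstream of the annotated start. It was the peak nearest to a gene end among the 26, was 640 bp wide, and had a signal of 8.60 and a p-value of 0.943. A cKO-specific peak at 32170983 to 32171597 lay 5696 bp upstream of that start (signal 24.3, p-value 0.457), and the gap between the 2 peaks was 5926 bp. A second cKO-specific peak at 32130031 to 32130526 lay 12506 bp beyond the other end of the gene (signal 24.5, p-value 0.387). By score these cKO peaks ranked in the top 6.99% and 9.79% of their list, whereas the cWT peak stood at 73.1% of its own. Lrrc33 was thus the gene where a cWT-specific peak at the start was flanked by cKO-specific peaks on both sides. Signals have no stated scale and were not compared between lists.

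The receptor genes carried cKO-specific peaks and 0 cWT-specific peaks. At Tgfbr2, which encodes the ligand-binding type II receptor (chromosome 9, 116087695 to 116175363, minus strand), 1 peak lay 3012 bp upstream of the annotated start, at 116178193 to 116178557, within the lncRNA gene Gm40582. It had a p-value of 0.465 and a signal of 12.5. Further peaks lay inside the gene, 11219 bp downstream of the start (116164044 to 116164243, p-value 0.971) and 41686 bp downstream (116133451 to 116133902, signal 13.5, p-value 0.775). The signal of the peak at 11219 bp, 5.22, ranked 8606th of 8615 in the cKO list. The nearest cWT-specific peak to any of the Tgfbr2 peaks was 1154060 bp away. The upstream peak had the lowest p-value of the Tgfbr2 peaks, and the interior peak at 41686 bp the highest signal.

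Tgfbr1, which encodes the type I receptor kinase (chromosome 4, 47353222 to 47414926, plus strand), had a cKO-specific peak inside the gene at 47398245 to 47398587, with a signal of 16.2 and a p-value of 0.606. The peak lay 45194 bp downstream of the gene's first annotated start. RefSeq gives Tgfbr1 a second promoter inside the gene, and the peak lay 12200 bp downstream of that start. A further cKO-specific peak lay 4459 bp beyond the far end of the gene (47419294 to 47419476, signal 12.3), and its p-value of 0.982 was the highest of the 26 peaks. The first of these was 220853 bp from the closest peak of the cWT list. Both receptor genes thus had listed peaks inside the gene and outside it, upstream of the start at Tgfbr2 and beyond the far end at Tgfbr1.

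**Figure D2:**
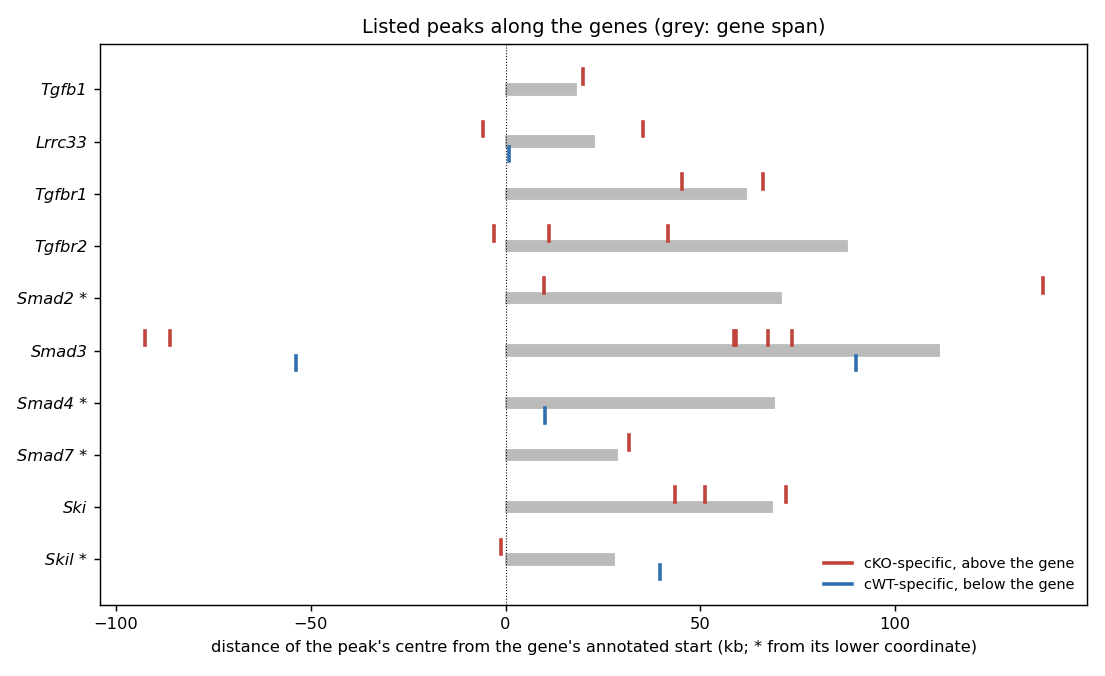
Position of the 26 peaks along the 10 genes, as distance of the peak's centre from the annotated start in kb, with the gene's span in grey, cKO-specific peaks in red above it and cWT-specific peaks in blue below it. Genes marked * have no strand in the tables used and are drawn from their lower coordinate. The 4 interior cKO-specific peaks of Smad3 lie 58.7 to 73.5 kb from its start, and the cWT-specific peak of Lrrc33 lies beside its start.

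Smad3, the receptor-activated Smad that binds DNA directly (chromosome 9, 63646766 to 63757994, minus strand), had 8 listed peaks, a number reached by 41 of the 21887 coding genes (0.187%). That count is not corrected for its long territory of 209.9 kb. Per 100 kb of territory Smad3 held 3.81 listed peaks, fewer than Lrrc33 (6.35) and Tgfb1 (4.69). The 6 cKO-specific peaks of Smad3 formed a run of 4 and a run of 2. The run of 4 lay inside the gene within 15.1 kb, from 63684313 to 63699382, and 58.7 to 73.5 kb downstream of the annotated start. Their signals were 11.9, 19.8, 9.40 and 15.9 in order of position, and their p-values 0.914, 0.765, 0.955 and 0.848. The last pair of that run was separated by 0.247 kb and may be 1 region. The run of 2, at 63844009 to 63844398 and 63850296 to 63850761, lay 86210 and 92535 bp upstream of the start, with signals of 12.3 and 12.4 and p-values of 0.886 and 0.929. This run lay in the stretch between Smad3 and Smad6, 108872 and 102547 bp from the nearest end of Smad6, which encodes an inhibitory Smad. The cKO-specific peaks of Smad3 were thus far from its start, either deep in the gene or far upstream.

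The cWT-specific peaks of Smad3 lay apart from both runs. The interior one, at 63667777 to 63668116, was 90047 bp downstream of the start, with a gap of 16196 bp to the nearest cKO-specific peak (signal 9.75, p-value 0.962). The upstream one, at 63811519 to 63811917, was 53724 bp from the start, with a gap of 32091 bp to the nearest cKO-specific peak (signal 9.18, p-value 0.971). No listed Smad3 peak overlapped a peak of the other list, which held for all 26 peaks. Around Smad3, 1 further cKO-specific peak, at 63641984 to 63642180, was 4684 bp from the gene's end but nearer to Aagab and was not counted.

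The number in each peak's name rises with position along every chromosome and was read as its place in the genotype's full set of peaks. The interior run of Smad3 has consecutive numbers, 31763 to 31766, and so does the upstream run, 31778 and 31779. On their outer sides the runs end by the counting rule and not in the numbering. The listed cKO peak 31762, counted for Aagab, directly precedes the interior run. The listed cKO peak 31780, which starts at 63960573, directly follows the upstream run. Between the runs, over 144.6 kb that include the start of the gene, 11 numbered cKO peaks are not in the cKO-specific list. In the cWT numbering, 10 unlisted peaks lie between the 2 cWT-specific peaks. Among all numbered peaks, 25.8% are listed in cKO and 12.1% in cWT. The listed cKO peaks of Smad3 thus sat on either side of a stretch of numbered peaks that were not set apart as specific.

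Numbered peaks outside the lists also lay around the other genes. From its first to its last listed cKO peak, Tgfbr2 had 3 of 7 numbered peaks listed over 45.1 kb, Ski 3 of 5 over 28.9 kb, and Lrrc33 2 of 3 over 41.6 kb. Where the unlisted cKO peak of Lrrc33 lies relative to the cWT-specific peak in that stretch cannot be read from the numbering. Smad2 had 2 of 3 over 128.2 kb, and Tgfbr1 2 of 2 over 21.2 kb. Both ends of such a stretch are listed by construction, so these shares are no measure of clustering. At Smad4, where the cKO list has 0 peaks, the cKO numbering still passes over 10 unlisted peaks in the 3125 kb between the listed peaks on either side. How many of these 10 lie at Smad4 itself cannot be read from the numbering.

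Smad2, Smad4 and Smad7 all lie on chromosome 18 and held 3 cKO-specific peaks and 1 cWT-specific peak together. On that whole chromosome the cKO list gave 64.1% of 359 listed peaks (exact 95% interval 58.9 to 69.0%). Smad2, the other receptor-activated Smad (76241090 to 76311748), had a cKO-specific peak inside the gene, 9890 bp from its lower end (76250796 to 76251163, signal 9.93, p-value 0.952). A second one lay 67169 bp beyond its upper end (76378817 to 76379016, signal 10.6, p-value 0.947). Smad4, the shared partner of the activated Smads (73634790 to 73703791), had its cWT-specific peak inside the gene at 73644674 to 73645053, 10074 bp from its lower end (signal 11.3, p-value 0.952). Smad7, the inhibitory Smad of the TGF-beta branch (75367365 to 75395935), had a cKO-specific peak at 75398815 to 75399134, which is 3040 bp beyond its upper end and inside the lncRNA gene Gm41776 (signal 18.4, p-value 0.622). The Smad7 peak ranked in the top 20.5% of the cKO list by score, and the Smad2 peaks stood at 91.5% and 89.4%.

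The Smad corepressor genes differed in where their peaks lay. Ski (chromosome 4, 155154075 to 155222535, minus strand) had 3 cKO-specific peaks and 0 cWT-specific peaks in the part of the gene far from its start. They lay inside the gene 43425 bp (155178898 to 155179321, signal 24.1, p-value 0.576) and 51091 bp downstream of the start (155171328 to 155171559, signal 15.8, p-value 0.825), and 3442 bp beyond the far end (155150405 to 155150860). The last of these had the lowest p-value of the 26 peaks, 0.327, and a signal of 22.0, and it ranked 453rd of 8615 by score. The coding gene Morn1 had its nearest end 5126 bp from that peak. Skil, which encodes the related repressor SnoN (chromosome 3, 31095058 to 31122923), had a cKO-specific peak 1267 bp beyond its lower end (31093683 to 31093899, signal 10.9, p-value 0.609). Its cWT-specific peak lay 11817 bp beyond its upper end (31134662 to 31134818, signal 11.9, p-value 0.888). A cKO-specific peak counted for the next gene, Cldn11, lay 3741 bp from that cWT-specific peak, the shortest gap between lists at any of the 26 peaks.

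By p-value the peaks of the 10 genes lay near the middle of the cKO list and low in the cWT list. The 21 cKO peaks had p-values from 0.327 to 0.982 with a median of 0.825, against a median of 0.813 for all assigned cKO peaks. The 5 cWT peaks had p-values from 0.888 to 0.971 with a median of 0.952, against 0.884. A p-value of up to 0.5 was seen at 4 of the 21 cKO peaks (19.0%), namely both Lrrc33 peaks, 1 Ski peak and 1 Tgfbr2 peak, against 12.4% of all assigned cKO peaks. None of the 5 cWT peaks had one, against 6.29%. All 26 are named secondary by the authors, as are 7668 of 7899 assigned cKO peaks and 3069 of 3114 assigned cWT peaks. That name is thus not particular to the 10 genes. The lowest adjusted p-value the authors deposited for any of the 26 is 0.979. Over all assigned peaks the lowest is 0.194 in cKO and 0.231 in cWT. A lowest value over 26 peaks is not comparable with one over a whole list. Without the 6 Smad3 peaks the median p-value of the cKO member peaks was 0.622, and the Smad3 peaks ranged from 0.765 to 0.955.

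Higher signal mostly went with a lower p-value, with exceptions among the 10 genes. Over all 8615 cKO peaks the rank correlation of signal with p-value was -0.72 (Spearman, across peaks of 1 list, which share libraries), and over the 21 cKO member peaks it was -0.62. Over all 3490 cWT peaks it was -0.76. Median signals were 13.5 for the 21 peaks and 16.6 for all assigned cKO peaks, and median widths 368 and 314 bp. The Tgfb1 peak combined the highest signal of the 21 with one of the highest p-values, and the upstream Tgfbr2 peak combined a low p-value for the group with a signal that ranked 6236th. The test behind this p-value is not stated in the lists.

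**Figure D3:**
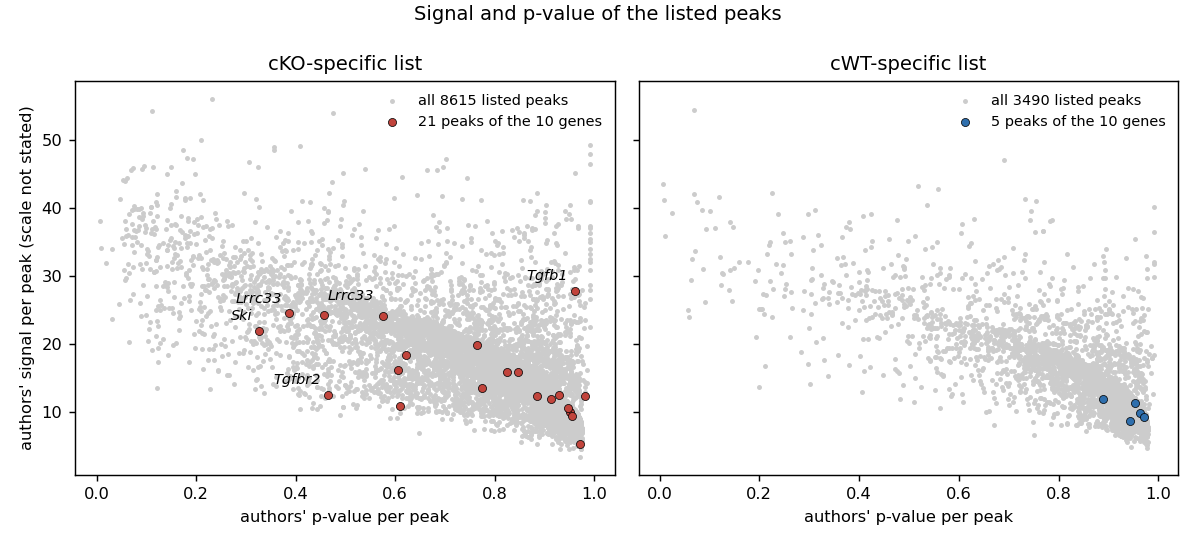
Signal (y axis, scale not stated) against p-value (x axis) as deposited by the authors for each listed peak, with cKO-specific peaks on the left, cWT-specific peaks on the right, all listed peaks in grey and the 21 and 5 peaks of the 10 genes in colour. Named are the 4 cKO peaks with p-values up to 0.5 and the Tgfb1 peak, which sits at a signal of 27.8 and a p-value of 0.961.

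Most of the peaks lay away from gene ends. Of the 26, 13 lay inside their gene and 13 outside it. Within 1000 bp of a gene end there were 0 of 21 cKO peaks, against 15.0% of all assigned cKO peaks, and 1 of 5 cWT peaks, that of Lrrc33, against 17.8%. The median distance to the nearest gene end was 16510 bp in cKO, against 10500 bp for all assigned cKO peaks, and 11817 bp in cWT against 11607.5 bp. The 10 cKO peaks inside a coding gene were 47.6% of 21, against 61.0% of all assigned cKO peaks. None of the 26 overlapped a peak of the other list, and the median gap to the other list was 70101.5 bp. Neither value was computed over all listed peaks, so neither is read as a trait of these genes.

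RefSeq gave 7 promoters for 6 of the 10 genes, Tgfb1, Lrrc33, Tgfbr1, Tgfbr2, Smad3 and Ski, and 0 of the 26 peaks overlapped one of them. The 26 include the peaks of Smad2, Smad4, Smad7 and Skil, which had no promoter there to overlap. The share of all listed peaks that overlap a promoter was not computed. Of 6 motifs searched on both strands in the 250 bases before the start, 4 were in 0 of the 7 promoters. These were the palindromic Smad element GTCTAGAC (0.167% of the 32851 promoters in that table), the AP-1 motif TGANTCA (6.75%), the PU.1 motif GAGGAAGT (2.44%) and AGCAATA, the complement of the miR-137-3p seed shown above (1.84%). CAGACA, a short Smad-type motif, was in 1 of the 7, the second Tgfbr1 promoter, and in 17.1% of all promoters. The Runx motif TGTGGT was in 1 of the 7, that of Lrrc33, as its complement ACCACA 174 bases before the start, and in 14.0% of all promoters. It is the stretch in capitals in the Lrrc33 promoter above, and the Tgfbr2 promoter has none of the 6. A match describes letters in this window and is not a binding site. Transcripts were not searched for the seed complement, so whether miR-137 targets these genes was not tested. GC content ranged from 52.8% in the second Tgfbr1 promoter to 87.6% in that of Ski, against a median of 52.4%.

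Other genes linked to TGF-beta superfamily signalling carried listed peaks of both genotypes as well. Of 51 further genes in 5 lists, 26 had a cKO-specific peak (51.0%) and 17 a cWT-specific peak (33.3%), with 52 and 25 peaks. Among 12 genes of latency and other ligands, 5 had a cKO-specific and 4 a cWT-specific peak. Itgav, the integrin chain that takes part in releasing TGF-beta, had 4 cKO-specific and 0 cWT-specific peaks, while Furin, a protease that cleaves the TGF-beta precursor, and Ltbp4, a latent TGF-beta binding protein gene, had 3 and 0 each. Ltbp1 and Ltbp2, of the same family as Ltbp4, and the ligand gene Tgfb2 had 0 and 2 each. Among 11 other receptors it was 6 and 3, with 2 cKO-specific and 1 cWT-specific peak at the activin receptor gene Acvr2a and 1 of each at the type I receptor genes Acvr1 and Acvr1b. Among 4 BMP and inhibitory Smads it was 2 and 2, with 4 cKO-specific and 1 cWT-specific peak at Smad6, 3 and 0 at Smad1 and 0 and 1 at Smad5, both Smads of the BMP branch.

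Among 14 pathway regulators, 6 had a cKO-specific and 5 a cWT-specific peak. Tgif1, a Smad corepressor gene, had 5 cKO-specific and 1 cWT-specific peak. Wwp2, a ubiquitin ligase gene, had 1 and 4, and Pmepa1, which encodes an inhibitor of Smad activation, 1 and 2. Smurf1, a ubiquitin ligase gene of the pathway, with 2 and 1, and Zfyve9, which encodes the Smad anchor SARA, with 3 and 0, had as many peaks as Pmepa1. Among 10 nuclear partners and response genes it was 7 and 3, with 2 cKO-specific and 1 cWT-specific peak at Id2, a gene of an inhibitor of DNA binding, 3 and 0 at Klf10, a TGF-beta-inducible zinc finger gene, and 2 and 1 at Tgfbi, a TGF-beta-induced matrix protein gene. Each of the 5 lists had a share of genes with a cKO-specific peak above the 22.5% of all coding genes and a share with a cWT-specific peak above the 11.4%, so a share above these was not particular to the 10 genes. These shares are not corrected for territory, which among the 51 genes ran from 5.72 kb at Foxh1 to 324 kb at Nedd4l. The median territory of all coding genes was 46.4 kb. Whether the 10 genes differ from these lists was not tested.

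**Figure D4:**
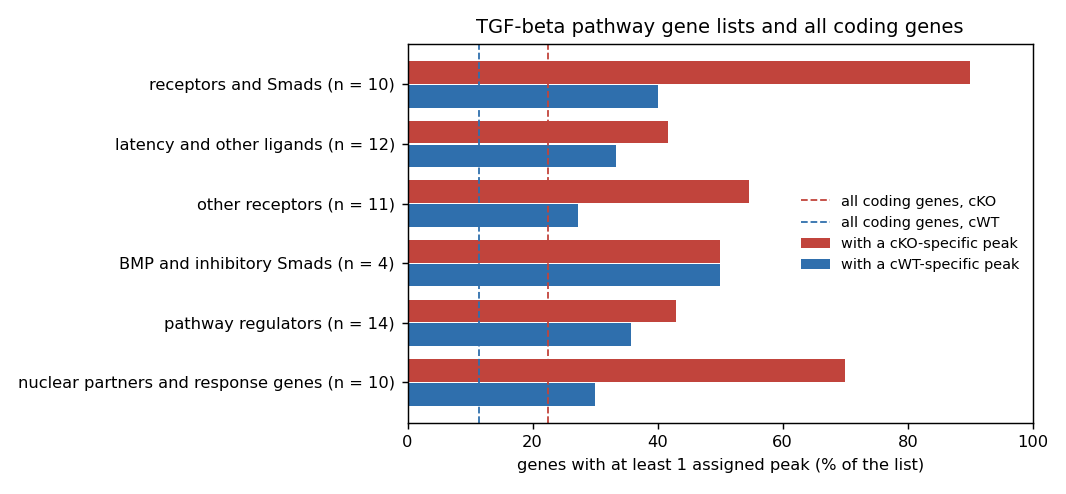
Share of genes with at least 1 assigned peak (x axis, % of the list) for the 10 genes (receptors and Smads) and 5 other lists of genes linked to TGF-beta superfamily signalling, with cKO-specific peaks in red and cWT-specific peaks in blue. Dashed lines mark the shares of all coding genes, 22.5% in cKO and 11.4% in cWT.

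The cell type labels could be checked against these lists to a limited degree, since a marker gene open in both genotypes would be in neither list. Of 8 microglial markers 6 had a cKO-specific peak (75.0%, against 22.5% of all coding genes) and 1 a cWT-specific peak (12.5%, against 11.4%). P2ry12 had 3 cKO-specific and 2 cWT-specific peaks, Sall1 2 and 0, and Fcrls and Tmem119, the gene that drives the recombinase, 1 and 0 each. The share with a cKO-specific peak was the same, 3 of 4, for astrocyte and for vascular markers, and each of these lists had 1 of 4 with a cWT-specific peak. It was 2 of 4 for the oligodendrocyte lineage and 1 of 4 for neurons, again with a cWT-specific peak at 1 of 4 each. Markers of other macrophages and monocytes went the other way, with 1 of 4 carrying a cKO-specific and 3 of 4 a cWT-specific peak, and 0 of 4 lymphocyte markers had either. The lists thus do not set microglial markers apart from those of astrocytes and vascular cells, and the part of other cells in the peaks of the 10 genes was not tested.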

How the data were processed

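The series holds 6 ATAC-seq libraries of microglia, 3 labelled cKO and 3 cWT in their titles, deposited as 2 headerless lists of genotype-specific peaks. The submitters' processing notes name MACS2 2.2.7.1, HOMER 4.11 and Bowtie2 2.4.4, and the builds GRCm38 and mm10. They assign no role to a tool. The rule for specific peaks, the handling of replicates and any Tn5 shift of reads are not given in the sources used. Read from layout and values, the columns deposited by the authors hold a score, a signal without stated scale, a p-value and a p-value adjusted for multiple tests. The score the authors deposited is a function of their p-value, and all ranks by score are within 1 list. A deeper genotype could give a longer list, which cannot be corrected without values per library.

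Peaks were assigned to RefSeq GRCm38.p6 coding genes by midpoint, within 100 kb. Promoters and miR-137 are from RefSeq tables of the same build. The 10 genes and all gene lists were chosen with earlier results of these data known. From each further list the 3 genes with the most peaks are named, ties in alphabetical order; Smurf1 and Zfyve9, tied with Pmepa1, and Ltbp1, Ltbp2, Tgfb2 and Tmem119 were added after their values were seen. Shares have exact (Clopper-Pearson) 95% intervals, and single genes were compared by a two-sided exact binomial test with Benjamini-Hochberg adjustment over all 270 genes with at least 5 peaks, which was tested on simulated data. Alternatives covered the window, competing genes, peak edge, merging within 500 bp, p-value, score and the minimum of peaks. Python 3.11.15, numpy 2.4.6, pandas 2.3.3, scipy 1.17.1 and matplotlib 3.10.9 were used.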

Additional observations from a re-analysis of the deposited data

How the results depend on the processing

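No paired analysis was possible because each list stands for a genotype and not for its libraries, and for the same reason no replicate could be left out. Measuring from the peak's edge left all counts as they were, and merging peaks within 500 bp gave 20 cKO-specific and 5 cWT-specific peaks. Letting all annotated genes compete gave 17 cKO-specific and 4 cWT-specific peaks, with a cKO-specific peak at 8 genes. Counting peaks inside the genes alone gave 10 cKO-specific and 3 cWT-specific peaks, with a cKO-specific peak at 5 genes. A window of 10 kb gave 3 cWT-specific peaks. Peaks with p-values up to 0.5 numbered 4 in the cKO list, at 3 genes, and 0 in the cWT list, at 0 genes, a cKO share of 100% of 4 peaks. Peaks scored at or above the median of their list numbered 10 in cKO and 1, at 1 gene, in cWT. Leaving out Smad3, an alternative chosen after seeing the data, gave 3 cWT-specific peaks. Under the other 7 settings the cKO share ranged from 76.9% to 90.9%, inside the interval of the value reported. The exact single-gene balance test passed 0 genes under the 9 alternatives, which tested from 1 gene (p-values up to 0.5) and 9 genes (window of 10 kb) to 571 genes (at least 4 peaks). With so few genes or peaks it had little chance to pass, so this is no sign of stability, and the same holds for Smad3. The unknown depth limits each comparison of list lengths.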
